A study of Mus musculus with 8 samples.

Results

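A set of 10 genes of the Wnt pathway were examined in lung endothelial cells (ECs) of mouse pups, out of the 54532 genes in the deposited count table. Of these, Wif1, Sfrp1, Sfrp2, Dkk2 and Dkk3 encode secreted proteins grouped here as Wnt antagonists. The others were Apcdd1, Axin2, Lef1, Nkd1 and Notum, which are known targets of Wnt signalling. Wif1 was chosen for its fall on hyperoxia in these same libraries, so its values are given as a description with no test, and the other 9 genes were named as further antagonists and as targets of the pathway. These 9 genes and the pathway lists below were also chosen with earlier results of these data known, so they were not named independently of the data. The ECs came from wild-type C57BL/6J pups at postnatal day 14. The Air group (4 libraries) was reared in room air at 21% O2, and the Hyperoxia group (4 libraries) was kept at 80% O2 from day 0, an exposure used as a mouse model of bronchopulmonary dysplasia, the chronic lung disease of preterm infants. No gene was deleted and no drug was given in either group. Per the study's methods, leukocytes were removed with anti-CD45 beads and the ECs were then collected with anti-CD31 beads, which enriches ECs but can carry other lung cells along. Nothing in the sources used here says whether a library was made from 1 pup or from several, so p-values measure the spread between these libraries.

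In the canonical Wnt pathway, a Wnt ligand binds a Frizzled receptor and the co-receptor Lrp5 or Lrp6 at the cell surface. The cytoplasmic complex of Axin, Apc and Gsk3 that otherwise destroys β-catenin is then held off, and β-catenin enters the nucleus and acts with TCF/LEF factors on target genes. Wif1 and the Sfrp proteins bind Wnt ligands outside the cell, whereas Dkk proteins such as Dkk2 act on Lrp5 and Lrp6. Several targets are also inhibitors and form a negative feedback: Axin2 is a scaffold of the destruction complex, Nkd1 binds Dishevelled, Apcdd1 is a membrane protein that binds Wnt and Lrp proteins, and Notum is an enzyme that removes the lipid from Wnt ligands. In ECs, Wnt/β-catenin signalling is best known for vascular growth and for the blood-brain barrier, and in the lung Wnt ligands also act on the epithelium and mesenchyme.

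Promoter sequences are shown for 4 of these genes, Wif1 and Sfrp2 as the antagonists with the lowest and the highest log2 fold change and Axin2 and Nkd1 as feedback inhibitors whose counts moved in opposite directions. Each run holds the 250 bases before a RefSeq transcript start (mouse build GRCm38.p6), written 5′ to 3′, with CpG dinucleotides in capitals.
Wif1, chr10:121033754-121034003, plus strand: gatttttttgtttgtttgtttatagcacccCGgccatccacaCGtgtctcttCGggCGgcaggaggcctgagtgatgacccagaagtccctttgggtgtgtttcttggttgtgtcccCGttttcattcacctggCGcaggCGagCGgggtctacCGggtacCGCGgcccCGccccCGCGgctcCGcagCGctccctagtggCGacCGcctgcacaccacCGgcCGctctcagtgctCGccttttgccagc
Sfrp2, chr3:83766071-83766320, plus strand: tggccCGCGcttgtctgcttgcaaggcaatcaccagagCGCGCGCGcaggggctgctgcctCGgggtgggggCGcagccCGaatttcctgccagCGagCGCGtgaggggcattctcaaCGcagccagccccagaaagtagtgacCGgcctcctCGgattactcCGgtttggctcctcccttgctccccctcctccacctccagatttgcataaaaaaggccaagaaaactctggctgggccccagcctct
Axin2, chr11:108920099-108920348, plus strand: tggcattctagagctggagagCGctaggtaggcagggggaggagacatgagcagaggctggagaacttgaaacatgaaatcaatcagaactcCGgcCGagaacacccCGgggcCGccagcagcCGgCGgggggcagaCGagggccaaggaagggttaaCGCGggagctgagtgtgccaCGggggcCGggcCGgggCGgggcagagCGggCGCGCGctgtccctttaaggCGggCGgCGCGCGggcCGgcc
Nkd1, chr8:88527383-88527632, plus strand: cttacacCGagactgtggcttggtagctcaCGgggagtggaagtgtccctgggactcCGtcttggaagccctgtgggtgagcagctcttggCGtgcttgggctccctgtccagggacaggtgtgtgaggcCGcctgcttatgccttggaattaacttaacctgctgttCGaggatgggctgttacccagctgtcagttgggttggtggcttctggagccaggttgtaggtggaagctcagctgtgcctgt
The Axin2 run held 24 CpG dinucleotides, that of Wif1 21, that of Sfrp2 16 and that of Nkd1 6. The Nkd1 run lies inside the gene as the count table places it, so it belongs to a shorter transcript. RefSeq windows of 300 bases, from 250 before to 50 after a start, were found for 6 of the 10 genes (9 windows in all, 4 of them for Lef1). GC content was 70.0% in the Axin2 window, 66.0% in that of Sfrp2, 63.0% in that of Wif1 and 58.3% in that of Nkd1, against a median of 52.7% over 32851 windows of 27025 genes. The TCF/LEF motif was searched as CTTTGAT and CTTTGAA on both strands, and 0 of the 9 windows held either, while 2842 of all 32851 windows (8.65%) did. This says only that these letters are not in these windows.

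Counts per library summed to between 16098086 and 18300730. Levels are in CPM, which scale the gene's count to the TMM-adjusted size of its library. Differences are log2 fold changes of Hyperoxia over Air from the quasi-likelihood test of edgeR with their standard errors (SE), and calls were made where the p-value adjusted by Benjamini-Hochberg over 15564 tested genes was under 0.05. The median log2 fold change of all tested genes was −0.004. Pan-endothelial markers such as Pecam1 and Cdh5 were abundant in all 8 libraries, with a sum over 9 markers of 13964 to 14684 CPM in Air and 13208 to 13883 CPM in Hyperoxia. Of these 9, 2 rose (Kdr and Emcn) and 3 fell (Tek, Tie1 and Erg). Mitochondrial transcripts took 0.864% to 1.05% of counts in Air and 1.21% to 1.43% in Hyperoxia, with no overlap, and their part in the results was not tested. The library Hyperoxia 3 stood apart from the rest of its group in markers of other cells, which are given with the results they touch.

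Of the 9 genes other than Wif1, 8 passed the filter on low counts and Notum did not. Of these 8, 3 rose in Hyperoxia (Sfrp2, Apcdd1 and Nkd1), where 18.5% of all tested genes were called higher, and 1 fell (Axin2), where 17.1% were called lower. The 4 others (Sfrp1, Dkk2, Dkk3 and Lef1) did not pass the threshold. When a change of at least 1 on the log2 scale was also required, Sfrp2 alone remained as higher and 0 as lower, beside 5.62% and 1.36% of all tested genes. That count was 0 also in edgeR at an unadjusted p under 0.05, in DESeq2 and in limma-voom, but it was 1 without Air 3, where Axin2 had a log2 fold change of −1.01. The 4 called genes were also those whose Air and Hyperoxia libraries did not overlap, 3 higher (17.8% of all tested genes) and 1 lower (17.6%). The genes called as rising thus included a secreted antagonist and a pair of feedback inhibitors, and the gene called as falling was a feedback inhibitor too.

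Wif1 (ENSMUSG00000020218, GRCm38 chr10:121033960-121100650, plus strand) was measured at 108, 108, 114 and 104 CPM in Air 1 to 4 and at 40.0, 24.7, 24.0 and 29.3 CPM in Hyperoxia 1 to 4. All Hyperoxia libraries lay below all Air libraries, and Hyperoxia 1 was the highest of its group. The means were 109 ± 4.0 CPM (SD, n = 4) in Air and 29.5 ± 7.37 CPM in Hyperoxia, a log2 fold change of −1.88 (SE 0.14), which was the reason for choosing the gene and is not a finding here. Among 9077 protein-coding genes with a mean of at least 10 CPM, this was the fall of rank 3, between Glb1l3 at −1.94 and Sparcl1 at −1.85. Over all alternative settings its log2 fold change ranged from −2.06 to −1.79. Fewer cells that express a gene and less RNA per cell cannot be told apart in bulk libraries, for Wif1 or for any gene below.

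Sfrp2 (ENSMUSG00000027996, chr3:83766321-83774316, plus strand), a secreted Frizzled-related protein, moved the opposite way. It was measured at 1.65, 1.42, 1.68 and 1.27 CPM in Air 1 to 4 and at 4.62, 6.46, 5.04 and 8.27 CPM in Hyperoxia 1 to 4. The lowest Hyperoxia library was above the highest Air library, and the level was low in both groups, with 23 to 30 counts per Air library and 81 to 149 counts per Hyperoxia library. Sfrp2 rose by 2.01 on the log2 scale (SE 0.22, edgeR adjusted p = 5.78e-05), from 1.51 ± 0.195 to 6.10 ± 1.65 CPM. An antisense gene, Gm26771, covers 16.1% of its exon bases and had a mean of 0.0142 CPM.

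Sfrp1 (chr8:23411502-23449632, plus strand), a relative of Sfrp2, was measured at 44.9, 28.9, 35.7 and 29.4 CPM in Air 1 to 4 and at 30.3, 33.4, 29.9 and 46.8 CPM in Hyperoxia 1 to 4. The groups overlapped over almost their whole range, with Air 1 and Hyperoxia 4 the highest of their groups. The log2 fold change was 0.02 (SE 0.17, edgeR adjusted p = 0.953), and its sign turned when Air 2, Air 4 or Hyperoxia 4 was left out (−0.07, −0.06 and −0.15).

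Dkk2 (chr3:132085292-132180304, plus strand), which acts on the co-receptor Lrp6, was measured at 6.49, 3.64, 5.43 and 2.87 CPM in Air 1 to 4 and at 5.42, 7.36, 6.30 and 8.49 CPM in Hyperoxia 1 to 4. The groups overlapped through Air 1 and Air 3. The log2 fold change was 0.58 (SE 0.24, edgeR adjusted p = 0.0875). Without Air 1 it was 0.79 with an adjusted p of 0.0283, and over all alternatives the adjusted p ranged from 0.0283 to 0.209.

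Dkk3 (chr7:112116017-112159057, minus strand), a divergent member of the Dkk family, was measured at 10.5, 5.63, 7.10 and 6.08 CPM in Air 1 to 4 and at 11.8, 15.5, 6.87 and 12.4 CPM in Hyperoxia 1 to 4. Hyperoxia 3 lay inside the Air range and the other 3 Hyperoxia libraries lay above it. The log2 fold change was 0.67 (SE 0.25, edgeR adjusted p = 0.0592). The adjusted p was 0.00902 without Hyperoxia 3 and 0.0182 without Air 1, and it was 0.0219 in DESeq2 and 0.0200 in edgeR with no filter on low counts. Whether Dkk3 is called therefore depended on these 2 libraries and on the settings. Hyperoxia 3 also had the lowest sum of fibroblast markers of its group and Air 1 the highest of its own (values below), and their part in the Dkk3 values was not tested.

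**Figure D1:**
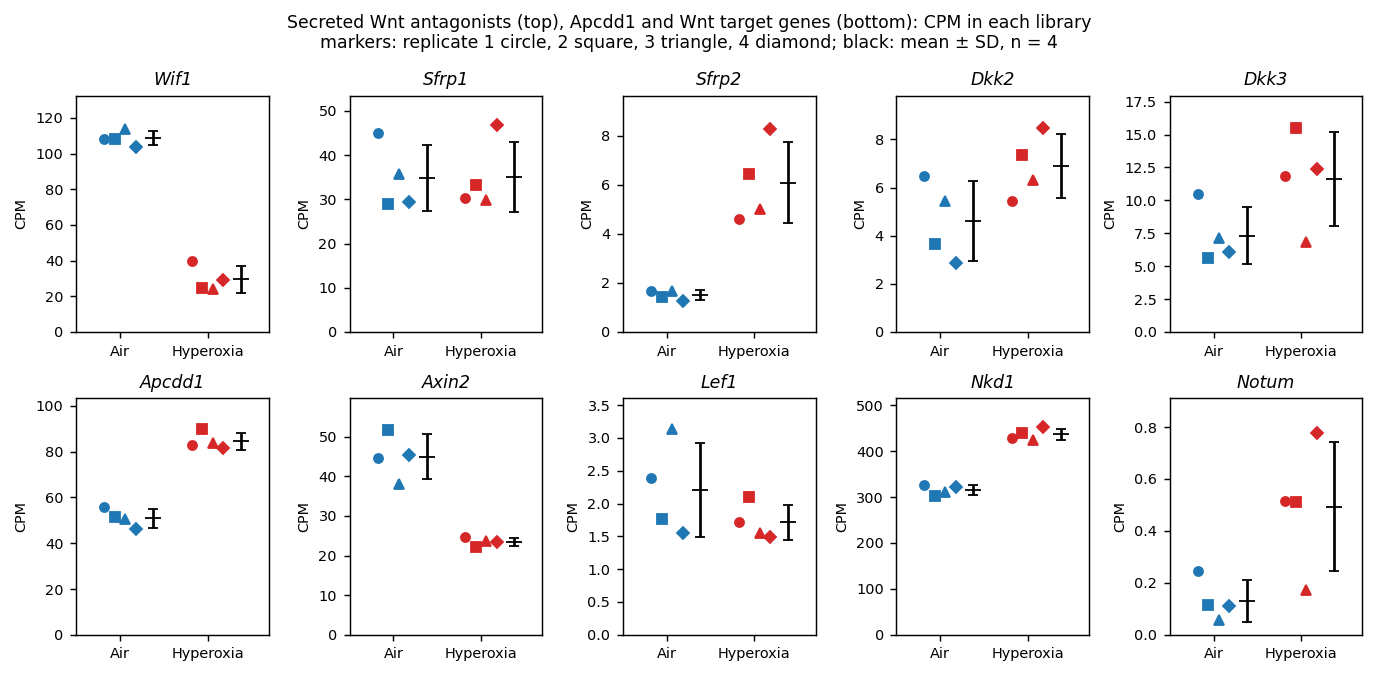
CPM of the 10 genes in each of the 8 libraries (linear axes from 0, points by replicate, black bars mean ± SD, n = 4). Wif1 and Axin2 lie lower in every Hyperoxia library than in any Air library, Sfrp2, Apcdd1 and Nkd1 lie higher, and the other 5 overlap.

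Among the targets, Axin2 (ENSMUSG00000000142, chr11:108920349-108950783, plus strand) was lower in Hyperoxia. It was measured at 44.7, 51.8, 38.0 and 45.5 CPM in Air 1 to 4 and at 24.8, 22.3, 23.6 and 23.4 CPM in Hyperoxia 1 to 4. The groups were well apart and the Hyperoxia libraries lay close together. Axin2 fell by 0.94 on the log2 scale (SE 0.09, edgeR adjusted p = 1.96e-05), from 45.0 ± 5.64 to 23.5 ± 1.03 CPM. Gm11670, an antisense gene over 3.80% of its exon bases, had a mean of 0.171 CPM.

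Nkd1 (ENSMUSG00000031661, chr8:88521354-88594884, plus strand), which is also a feedback inhibitor, rose. It was measured at 326, 301, 312 and 321 CPM in Air 1 to 4 and at 429, 440, 425 and 452 CPM in Hyperoxia 1 to 4. The spread within each group was small against the gap between them. The log2 fold change was 0.47 (SE 0.04, edgeR adjusted p = 1.89e-05), a rise from 315 ± 10.8 to 436 ± 12.3 CPM.

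Apcdd1 (ENSMUSG00000071847, chr18:62922327-62953195, plus strand) rose as well. It was measured at 55.8, 51.3, 50.4 and 46.0 CPM in Air 1 to 4 and at 83.0, 90.0, 83.7 and 81.7 CPM in Hyperoxia 1 to 4, again with no overlap. The log2 fold change was 0.73 (SE 0.06, edgeR adjusted p = 9.66e-06), from 50.9 ± 4.0 to 84.6 ± 3.72 CPM. Its coordinates in the count table differ from those of the GENCODE M21 annotation, which held for none of the other 9 genes, so its counts and its length rest on a different gene model.

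Lef1 (chr3:131110471-131224356, plus strand), a TCF/LEF factor that is itself a Wnt target, was low throughout. It was measured at 2.39, 1.76, 3.13 and 1.55 CPM in Air 1 to 4 and at 1.71, 2.10, 1.55 and 1.5 CPM in Hyperoxia 1 to 4, with 27 to 56 counts per library and an overlap of the groups. The log2 fold change was −0.36 (SE 0.26, edgeR adjusted p = 0.30). Lef1 and Dkk2 lie 861 kb apart on chromosome 3.

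Notum (chr11:120653788-120661175, minus strand) was near the limit of detection, with 4, 2, 1 and 2 counts in Air 1 to 4 and 9, 9, 3 and 14 counts in Hyperoxia 1 to 4. The sums were 9 counts in Air and 35 in Hyperoxia, and the groups overlapped through Air 1 and Hyperoxia 3. Notum was below the filter of the main test. With no filter the log2 fold change was 1.89 (edgeR adjusted p = 0.0368), DESeq2 gave 1.93 (adjusted p = 0.0494), and limma on log2(FPKM + 0.1) with no filter gave 0.93 (adjusted p = 0.0893). Antisense genes cover 29.4% (Notumos) and 8.72% (Myadml2os) of its exon bases, with means of 0.0212 and 0 CPM.

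Levels of different genes were compared per gene length, as the deposited FPKM (fragments scaled to gene length and to the library total). For Apcdd1 the deposited length was 2799 bases, whereas GENCODE M21 gives 12884 exon bases. Its place in the order below rests on the deposited length. In Air, Nkd1 was the highest at a mean of 68.5 FPKM, followed by Wif1 at 44.4, Apcdd1 at 18, Axin2 at 8.11 and Sfrp1 at 7.89 FPKM. Dkk3 (2.16 FPKM), Dkk2 (1.23 FPKM), Sfrp2 (0.694 FPKM), Lef1 (0.249 FPKM) and Notum (0.0541 FPKM) followed. In all, 3 pairs of neighbours in this order overlapped between libraries, namely Axin2 with Sfrp1, Dkk3 with Dkk2 and Dkk2 with Sfrp2. In Hyperoxia, Nkd1 (95.3 FPKM) was again the highest, and Apcdd1 (30.1 FPKM) now came before Wif1 (12.1 FPKM). Wif1 overlapped there with the next gene, Sfrp1 (7.98 FPKM). Axin2 was at 4.25 FPKM and overlapped with Dkk3 at 3.45 FPKM, which overlapped in turn with Sfrp2 at 2.82 FPKM. Dkk2 (1.85 FPKM) overlapped with Sfrp2, and the lowest pair, Notum (0.203 FPKM) and Lef1 (0.194 FPKM), overlapped too. Thus Wif1 was the most abundant of the 5 secreted antagonists in both groups by its mean, with a gap to Sfrp1 in Air and an overlap in Hyperoxia.

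**Figure D2:**
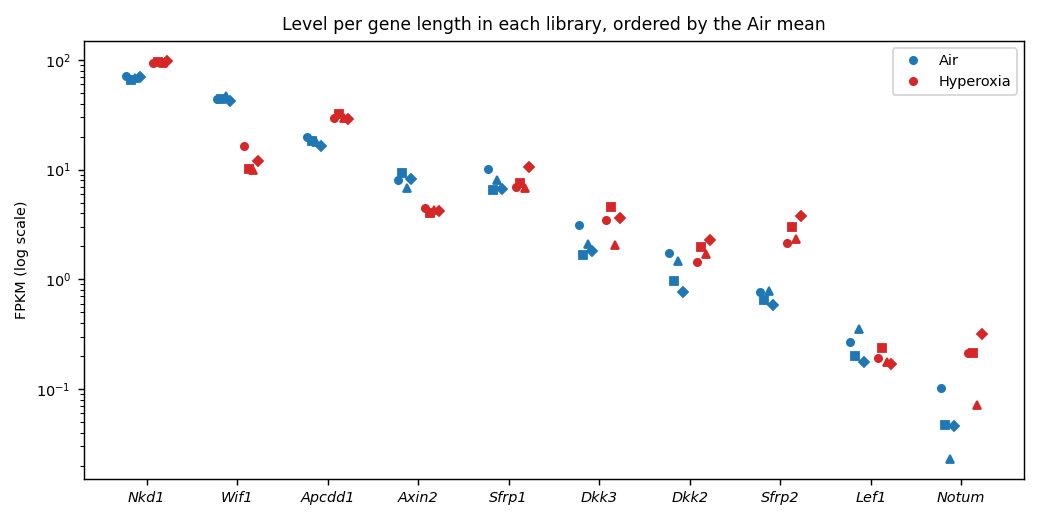
FPKM of each gene in each library on a log axis, ordered by the Air mean (blue Air, red Hyperoxia). The genes span from 0.0541 (Notum) to 68.5 FPKM (Nkd1) in Air. By the deposited gene lengths, Wif1 lies above Apcdd1 in Air and below it in Hyperoxia.

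Ratios of counts within a library describe how far the genes moved apart and need no scaling between libraries. For every count of Nkd1 there was 0.143 ± 0.0209 (SD, n = 4) of a count of Axin2 in Air and 0.0539 ± 0.00336 in Hyperoxia. The ratio of Axin2 to Apcdd1 was 0.889 ± 0.130 in Air and 0.279 ± 0.0221 in Hyperoxia. Both ratios were lower in each Hyperoxia library than in any Air library. This follows from the changes without overlap of Axin2, Nkd1 and Apcdd1 given above and adds no further support. The ratio of Wif1 to Sfrp2 was between 65.4 and 81.8 in Air and between 3.55 and 8.64 in Hyperoxia, where the choice of Wif1 fixes part of the difference.

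Genes whose log2 CPM was among the most like that of Wif1 over the 8 libraries were Ackr4 (Pearson r = 0.997), Cxcr4 (0.994), Glb1l2 (0.992) and Fmo1 (0.991), out of 9076 genes compared. Ackr4 is a decoy receptor for chemokines and Cxcr4 the receptor of the chemokine Cxcl12. These 4 were lower in Hyperoxia, from −0.72 for Fmo1 to −1.64 for Glb1l2 on the log2 scale. These r values are a description, since the 8 libraries fall into the 2 groups and 769 genes had an r over 0.9. Axin2 had an r of 0.955 with Wif1, Sfrp1 one of −0.02, and Nkd1 one of −0.97.

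The rest of the pathway was followed in 134 other genes, listed by role, of which 103 passed the filter. Of these 103, 27 (26.2%) rose and 26 (25.2%) fell, where 18.5% and 17.1% of all tested genes did, and 50 did not pass the threshold. The same shares of all tested genes, 18.5% called higher and 17.1% called lower, stand behind each count by role below. With at least a 2-fold change, 12 were higher and 0 were lower in edgeR, where 5.62% and 1.36% of all tested genes were. The 12 became 19 without Air 1 and 19 without Hyperoxia 3. The count lower was 0 also at an unadjusted p under 0.05, in DESeq2 and in limma-voom, and it is read against a background of 1.36%. Their median log2 fold change was 0.04.

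Of 9 tested Wnt ligands, 2 rose and 0 fell in edgeR, with 3 higher and 1 lower at an unadjusted p under 0.05. DESeq2, which also tested ligands below the filter, called 5 higher and 0 lower, and limma-voom called 2 and 0. Wnt5a, the best known ligand of β-catenin-independent signalling, was measured at 1.57 to 2.76 CPM in Air and 3.09 to 5.78 CPM in Hyperoxia (log2 fold change 1.27, edgeR adjusted p = 0.00227). Wnt10b was at 0.276 to 0.671 CPM in Air and 1.09 to 3.54 CPM in Hyperoxia (2.38, adjusted p = 0.000973). Wnt2b, the ligand with the highest level per gene length, did not pass (−0.56, adjusted p = 0.0800). For the secretion of Wnt ligands, Porcn, which attaches their lipid, fell by 0.55 on the log2 scale (adjusted p = 0.00383), whereas their carrier Wls was at 180 ± 8.76 CPM in Air and 193 ± 8.68 CPM in Hyperoxia (adjusted p = 0.170).

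Of 15 receptors and co-receptors, 4 (26.7%) rose and 2 (13.3%) fell, beside 18.5% and 17.1% of all tested genes. Lrp6, a co-receptor on which Dkk2 acts, was measured at 216, 236, 197 and 236 CPM in Air 1 to 4 and at 149, 152, 153 and 143 CPM in Hyperoxia 1 to 4. It fell by 0.57 on the log2 scale (SE 0.06, edgeR adjusted p = 5.36e-05), with the groups well apart. Fzd6 fell similarly, from 190 ± 10.7 to 129 ± 8.32 CPM (−0.56, adjusted p = 4.57e-05). Lrp5, the other co-receptor, moved the opposite way to Lrp6. It rose from 275 ± 11.4 to 312 ± 9.67 CPM (0.18, edgeR adjusted p = 0.0104), with no overlap of the groups. Fzd4, the listed receptor with the highest level per gene length (a mean of 88.6 FPKM over the 8 libraries) and the receptor of Norrin in vessels, was at 627 ± 83.1 CPM in Air and 572 ± 27.3 CPM in Hyperoxia (adjusted p = 0.253). Its partner Tspan12 rose by 0.18 (adjusted p = 0.0200), the one call among 4 genes of the Norrin and Wnt7 receptor complexes. The receptors that rose included Ptk7 (0.89, adjusted p = 3.08e-06), a co-receptor in planar cell polarity, Ror2 (1.48, adjusted p = 0.0147), a receptor of Wnt5a, and Fzd2 (2.39, adjusted p = 0.000678). Fzd2 was at 5.77, 5.66 and 6.05 CPM in Hyperoxia 1, 2 and 4 and at 1.89 CPM in Hyperoxia 3. Ror2 and Fzd2 were low, at means of 0.905 and 0.921 CPM in Air.

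Among 7 tested antagonists outside the 10 genes, 2 (28.6%) rose and 1 (14.3%) fell, beside 18.5% and 17.1% of all tested genes. Trabd2b, a membrane protease that acts on Wnt ligands, rose by 1.44 (edgeR adjusted p = 0.00465), and Tpbg, which alters the handling of Lrp6, rose by 1.25 (adjusted p = 0.00218). Both had means under 4 CPM in either group. Kremen1, a receptor for Dkk proteins, fell by 0.22 (adjusted p = 0.0108). In the R-spondin module, which alters the amount of Wnt receptors at the surface, 2 of 5 tested genes rose and 0 fell in edgeR. DESeq2 called 3 higher and limma-voom 1, and both, like edgeR at an unadjusted p under 0.05, called 0 lower. Lgr4, a receptor for R-spondins, rose by 0.45 (adjusted p = 0.00728), and Znrf3, a ligase that removes Frizzled receptors and a feedback inhibitor like Axin2, was at 20.7 ± 2.84 CPM in Air and 17.6 ± 1.76 CPM in Hyperoxia (−0.24, adjusted p = 0.122). The other gene that rose was Rnf43, a ligase like Znrf3 (1.49, edgeR adjusted p = 0.0467). Rnf43 was low, with 29 counts in Air and 84 in Hyperoxia, and the groups overlapped. Hyperoxia 3, at 0.286 CPM, lay inside the Air range of 0.280 to 0.735 CPM. Hyperoxia 1, 2 and 4 were at 1.43, 1.19 and 1.83 CPM.

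Inside the cell, 8 of 19 tested genes of Dishevelled, the destruction complex and β-catenin fell and 0 rose in edgeR, where 17.1% of all tested genes were called lower. At an unadjusted p under 0.05 the counts were 10 lower and 0 higher, DESeq2 gave 7 and 0, and limma-voom gave 8 and 0. The changes were small. Btrc, which marks β-catenin for degradation, fell by 0.45 (edgeR adjusted p = 0.000243), Axin1, the constitutive relative of Axin2, fell by 0.28 (adjusted p = 0.00643), and Amer1 fell by 0.26 (adjusted p = 0.00940). The transcript of β-catenin itself, Ctnnb1, was at 1167 ± 45.3 CPM in Air and 1207 ± 40.0 CPM in Hyperoxia (0.05, adjusted p = 0.452). The fall of Axin2 was larger in its estimate than that of each of these 3 genes.

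Of 13 TCF/LEF factors and nuclear cofactors, 6 (46.2%) fell and 3 (23.1%) rose, beside 17.1% and 18.5% of all tested genes. The corepressor Tle1 fell by 0.63 (edgeR adjusted p = 0.000215), and the β-catenin coactivators Bcl9 and Bcl9l fell by 0.52 and 0.49 (adjusted p = 0.00167 and 0.00211). Rises were small, at 0.22 for Tle3 (adjusted p = 0.0421), 0.22 for Aes (adjusted p = 0.0289) and 0.18 for Tcf7l1 (adjusted p = 0.0379). Tcf7, a TCF/LEF factor like Tcf7l1, fell from 69.7 ± 3.39 to 55.9 ± 2.19 CPM (−0.32, edgeR adjusted p = 0.000804), with no overlap of the groups. Its mean level was 23.8 FPKM, against 7.53 FPKM for Tcf7l1.

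Among 13 other genes known as β-catenin targets, 7 (53.8%) rose and 2 (15.4%) fell, beside 18.5% and 17.1% of all tested genes. Ccnd1, the cell cycle gene for cyclin D1, was measured at 265, 232, 266 and 293 CPM in Air 1 to 4 and at 567, 611, 564 and 619 CPM in Hyperoxia 1 to 4. It rose by 1.16 on the log2 scale (SE 0.07, edgeR adjusted p = 1.02e-06), with no overlap. Fosl1, a subunit of the AP-1 factor, fell by 0.55 (adjusted p = 0.00523), and the Notch ligand Jag1 fell by 0.37 (adjusted p = 0.0176). These targets changed in both directions, as Axin2, Nkd1 and Apcdd1 did. The others that rose most were Wisp1 (1.11, adjusted p = 0.0197), a secreted matricellular protein, and the adhesion protein Nrcam (0.82, adjusted p = 0.0219).

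In brain ECs, a set of genes depends on β-catenin, and of 7 tested in these lung ECs 4 (57.1%) rose and 2 (28.6%) fell, beside 18.5% and 17.1% of all tested genes. Cldn5, a tight junction protein, rose from 2066 ± 92.4 to 2408 ± 110 CPM (0.22, edgeR adjusted p = 0.00643), the glucose transporter Slc2a1 rose by 0.46 (adjusted p = 0.00314), and Itm2a, a membrane protein, rose by 0.57 (adjusted p = 0.0209). The transporter Abcb1a fell by 0.49 (adjusted p = 0.000412) and the factor Sox17 by 0.48 (adjusted p = 0.000815). Spock2 rose by 2.40 (adjusted p = 7.49e-05) and was at 27.4 CPM in Hyperoxia 3 against 64.8 to 70.5 CPM in the other 3 libraries of the group.

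In planar cell polarity, a β-catenin-independent branch, 4 of 9 genes (44.4%) fell and 2 (22.2%) rose, beside 17.1% and 18.5% of all tested genes. Prickle1, Vangl2 and Prickle2 fell by 0.56, 0.46 and 0.30 (edgeR adjusted p = 0.00145, 0.00133 and 0.00895). Celsr1 rose from 6.92 ± 1.60 to 17.6 ± 2.58 CPM (1.35, adjusted p = 0.000140) and Daam2 rose from 4.43 ± 0.617 to 11.0 ± 1.38 CPM (1.30, adjusted p = 5.06e-05).

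**Figure D3:**
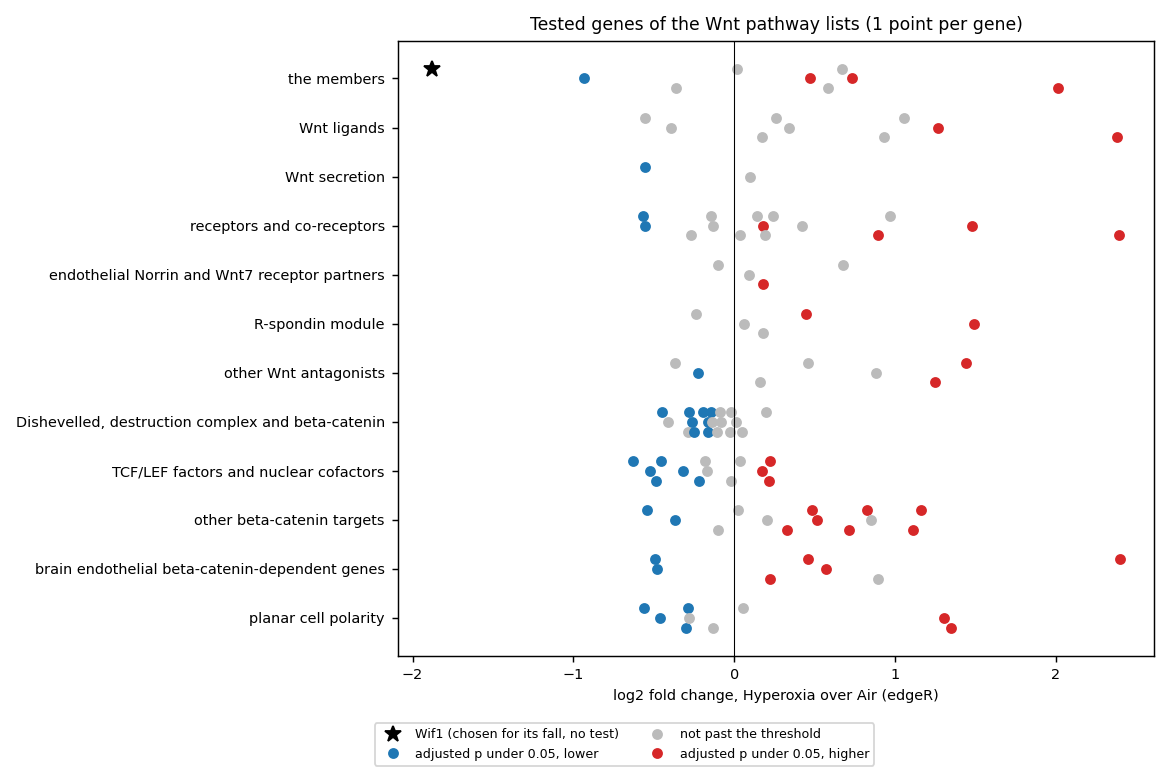
Log2 fold change (Hyperoxia over Air) of each tested gene, in rows by role, with colours for the call at an adjusted p under 0.05. A star marks Wif1, for which no call is reported because it was chosen for its fall. The mixed row of Dishevelled, the destruction complex and β-catenin holds 8 genes called lower and 0 called higher. The row of other β-catenin targets holds 7 called higher and 2 called lower.

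Many markers of fibroblasts, mural cells and alveolar cells were higher in Hyperoxia, though the fibroblast and mural sums overlapped between the groups. The sum of 8 fibroblast markers was 179 to 360 CPM in Air, highest in Air 1, and 549, 631, 242 and 469 CPM in Hyperoxia 1 to 4. Of its 7 tested genes 4 rose, and Lum had no count in Air 2 and Air 4. The sum of 9 mural and smooth muscle markers was 25.6 to 51.1 CPM in Air and 47.9 to 111 CPM in Hyperoxia, with 6 of 8 tested genes higher and no count of Cnn1 in Air 2 and Air 3. The sum of 8 alveolar type 2 markers was 237 to 335 CPM in Air and 2287, 2252, 759 and 2007 CPM in Hyperoxia 1 to 4, with all 8 higher, and that of 6 alveolar type 1 markers was 76.0 to 93.6 CPM and 157 to 449 CPM, with all 6 higher. Hyperoxia 3 was the lowest of its group in each of these 4 sums. The sum of 8 lymphocyte markers overlapped between the groups, at 48.2 to 114 CPM in Air and 62.5 to 99.9 CPM in Hyperoxia, with 0 called. That of 7 myeloid markers overlapped too, at 151 to 314 CPM in Air and 195 to 492 CPM in Hyperoxia, with 1 higher and 1 lower. In Hyperoxia 3, Dkk3 was at 6.87 CPM, inside the Air range. Sfrp2 was at 5.04 CPM, Apcdd1 at 83.7 CPM and Nkd1 at 425 CPM there, all above the Air range. Both Dkk3 and Nkd1 had the lowest value of their group in Hyperoxia 3, Nkd1 by a small margin (425 against 429 to 452 CPM). Without Hyperoxia 3 the number of the 8 genes called higher was 4 and the number called lower was 1. Spock2, Wisp1 (2.46 CPM), Nrcam (2.92 CPM), Trabd2b (2.12 CPM), Wnt5a, Wnt10b and Fzd2 were also lowest of their group in Hyperoxia 3. So were Ptk7 (96.2 CPM), Ror2 (1.60 CPM), Tspan12 (182 CPM), Rnf43 (0.286 CPM) and Notum (3 counts). Ccnd1 (564 against 567 to 619 CPM) and Lgr4 (7.61 against 7.71 to 8.78 CPM) were lowest there by small margins. The part of these cells in the values of these genes and of Sfrp2, Dkk2 and Dkk3 was not tested.

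The subtypes of capillary ECs differed between groups as well. The sum of 3 markers of general capillary (gCap) cells (Gpihbp1, Aplnr and Kit) was 1845 to 2038 CPM in Air and 864 to 1083 CPM in Hyperoxia, with all 3 lower. The sum of 3 markers of aerocyte capillary (aCap) cells (Ednrb, Apln and Car4) was 661 to 927 CPM in Air and 1547 to 1834 CPM in Hyperoxia, with all 3 higher. The sum of 6 entries of 5 lymphatic markers (Ccl21a has 2 entries) was 1237 to 1325 CPM in Air and 1861 to 2122 CPM in Hyperoxia. Of 5 tested entries, 4 were higher. Most of this sum was Lyve1, at 954 ± 48.0 CPM in Air and 1602 ± 75.7 CPM in Hyperoxia. Prox1 was at means of 10.9 and 16.6 CPM with an overlap of the groups. The sum of 5 arterial markers was 1724 to 2138 CPM in Air and 1295 to 1376 CPM in Hyperoxia, with 3 of 5 lower. The sum of 4 venous markers was 2014 to 2604 CPM in Air and 2235 to 3086 CPM in Hyperoxia, with 3 of 4 higher. The part of these shifts in the values of Wif1, Axin2, Nkd1, Apcdd1, Sox17 and Jag1 was not tested.

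**Figure D4:**
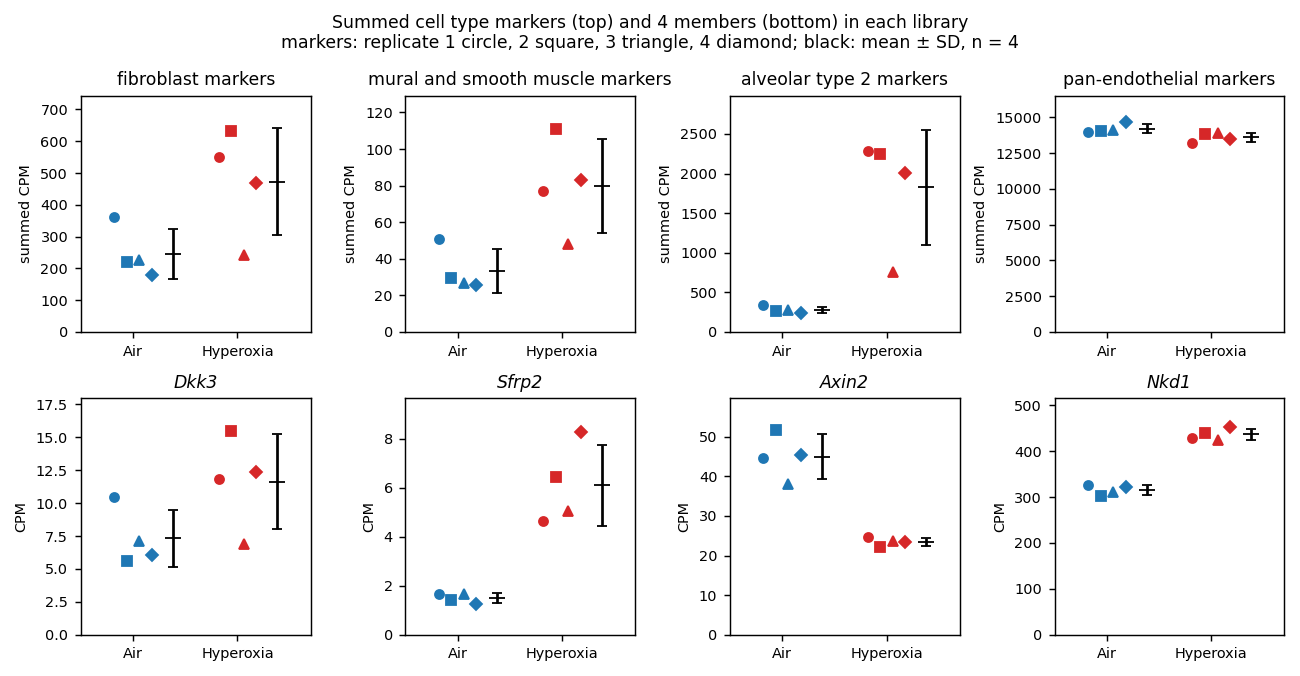
Summed CPM of 4 marker lists (top) and CPM of 4 of the genes (bottom) in each library, with mean ± SD (n = 4). In Hyperoxia 3 (triangle) the fibroblast, mural and alveolar type 2 sums and Dkk3 are the lowest of the group. Axin2 and Nkd1, of which Nkd1 is also the lowest there, lie near the other Hyperoxia libraries.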

How the data were processed

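Lung ECs of 8 libraries (4 Air, 4 Hyperoxia, grouped by sample titles) were profiled by mRNA-seq. The authors deposited raw whole-number counts per gene and FPKM of the same counts. HISAT2 2.0.5, featureCounts 1.5.0-p3 and mm10 are named in the submitters' processing notes, and whether counting used strand is not given in the sources used here, so reads of a gene and an overlapping antisense gene cannot be told apart.

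Counts were tested with edgeR 4.0.16 in R 4.3.3 (quasi-likelihood test, TMM, filterByExpr at its defaults, group as the only term) over all 15564 genes that passed, with Benjamini-Hochberg adjustment. The biological coefficient of variation was 0.120. The study's own tool, DESeq2 (here 1.42.0), was an alternative, as were limma-voom and limma 3.58.1 on log2(FPKM + 0.1) or log2(FPKM + 1), RLE normalization, no filter, a replicate block and leaving out each library. The fit was tested on simulated data.

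The 10 genes, the 134 pathway genes and the marker lists were chosen with earlier results of these data known. Pathway genes were named by a rule: in each list, up to 3 called genes with the largest changes in each direction and a mean of at least 1 CPM, and the gene with the highest mean FPKM. Lrp5, Rnf43 and Tcf7 were named outside this rule. The genes most like Wif1 were the 5 with the highest Pearson r of log2 CPM (prior count 2) among protein-coding genes with a mean of at least 10 CPM, of which 1 is not reported here. Coordinates are GRCm38 as deposited, and promoter windows are from RefSeq (GRCm38.p6).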

Additional observations from a re-analysis of the deposited data

Results flagged for a closer look

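In groups of 4 libraries, 1 library stood far from the other 3 (by Dixon's criterion) in 6 of 134 groups examined, where chance alone gives about 1 in 20. Fzd2 was at 1.89 CPM in Hyperoxia 3 and at 5.66 to 6.05 CPM in the others. Spock2 was at 27.4 CPM in Hyperoxia 3 and at 64.8 to 70.5 CPM in the others. The summed alveolar type 1 markers were at 157 CPM in Hyperoxia 3 and at 402 to 449 CPM in the others. Wisp1, a secreted β-catenin target, was at 3.43 CPM in Air 1 and at 1.77 to 1.99 CPM in the others. The summed mural and smooth muscle markers were at 51.1 CPM in Air 1 and at 25.6 to 29.3 CPM in the others. Jag1 was at 113 CPM in Air 3 and at 134 to 136 CPM in the others. None of the 10 genes had such a library in either group.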

How the results depend on the processing

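Sfrp2, Apcdd1, Nkd1 and Axin2 kept their direction and their calls in all 16 alternative fits. Of the 9 genes other than Wif1, 3 were called higher, and 5 were with no filter and 5 with DESeq2 (Dkk3 and Notum added in both). The number ranged from 3 to 5 when 1 library was left out (5 without Air 1, with Dkk2 and Dkk3 added, and 4 without Hyperoxia 3, with Dkk3 added), and 1 was always called lower. When a change of at least 1 on the log2 scale was also required, 1 was higher and 0 were lower, and of the pathway genes 12 were higher and 0 lower, fewer by construction. Over the alternatives these 12 ranged from 2, with limma on log2(FPKM + 1), to 19, and 1 pathway gene was lower with limma on log2(FPKM + 0.1) and no filter. Leaving out 1 library moved Sfrp1 between −0.15 and 0.16, with the sign turned in 3 fits. Replicate numbers did not pair the libraries (correlations of same-numbered deviations 0.12, 0.04, −0.13 and −0.14). With the replicate block, 3 of the 9 genes other than Wif1 were called higher and 1 lower, 28 pathway genes higher and 23 lower, and 4792 of all genes were called against 5535. Notum had 1 to 14 counts per library, so its values carry the largest counting error. Lef1 had 27 to 56.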
